A study of Mus musculus with 20 samples.

Results

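The transcripts described here encode chaperones and proteasome subunits, the machinery that folds proteins, refolds damaged ones and degrades those that cannot be refolded. The rule for members reads gene symbols and no expression value, and takes every symbol in the deposited table that begins with Hsp, Dnaj or a proteasome prefix (Psma to Psmg), together with Cct2 to Cct8 and Bag1 to Bag6. The rule found 46 of the 6025 genes in the table, namely 10 proteasome genes, 15 Hsp genes, 16 Dnaj genes, 3 Cct genes and 2 Bag genes. RefSeq lists 141 protein-coding mouse symbols that match the same rule, and the other matching symbols were not analysed here.

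RNA came from the renal cortex of wild-type C57BL/6 mice (C57BL/6J in the extraction protocol) aged 8 weeks. The groups were controls (n = 8), ischemia-reperfusion injury (IRI) at 24 h (n = 4), rhabdomyolysis at 24 h (n = 4) and cisplatin at 72 h (n = 4), with 1 library per mouse. The series calls the controls mock and vehicle animals, each control library is labelled mock, and neither the cisplatin dose nor the procedure behind IRI or rhabdomyolysis is given in the labels. Library identifiers fall into 2 ranges. The first holds the IRI libraries with controls 1 to 4, and the second holds both the rhabdomyolysis and the cisplatin libraries with controls 5 to 8. Every injury was therefore tested against the 4 controls of its own range, and rhabdomyolysis and cisplatin share theirs. The series calls the mice biological replicates. Cisplatin kidneys were taken later than the rest, and this time cannot be told apart from the drug.

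Cells keep separate chaperone systems in the cytosol, the endoplasmic reticulum (ER) and the mitochondria. In the cytosol, HSP70 and HSP90 proteins fold clients with J proteins (the Dnaj genes) and nucleotide exchange factors such as the BAG proteins, small heat shock proteins hold unfolded clients, and the ring-shaped CCT complex folds actin and tubulin. The transcription factor HSF1 induces many of these genes after proteotoxic stress by binding heat shock elements. In the ER, the chaperones BiP (Hspa5) and GRP94 (Hsp90b1) are induced by the unfolded protein response, in part through the ER stress response element bound by ATF6 and NF-Y. The proteasome has a 20S catalytic core and a 19S cap that recognises ubiquitinated proteins, and its subunit genes are known to be induced together when its activity falls short. Proximal tubule cells, which make up most of the renal cortex, reabsorb and degrade much filtered protein.

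The promoters of 5 genes with large differences between injuries are printed because they hold the motifs of these pathways. Each sequence is the 250 bases before the RefSeq transcription start on GRCm38.p6, written 5′ to 3′ on the strand of the gene, with the motif in capitals. In Hspa1a, Hspa1b and Hspb1 the capitals mark a pair of inverted heat shock units, GAANNTTC, and in Hspa5 and Hsp90b1 they mark the ER stress response element, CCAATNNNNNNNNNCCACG, on either strand.
Hspa1a, chr17:34972157-34972406 (minus strand): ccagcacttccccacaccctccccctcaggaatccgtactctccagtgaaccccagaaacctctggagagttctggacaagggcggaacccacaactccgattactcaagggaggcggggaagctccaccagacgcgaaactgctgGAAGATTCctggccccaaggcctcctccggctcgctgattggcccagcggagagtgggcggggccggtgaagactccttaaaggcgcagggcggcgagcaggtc
Hspa1b, chr17:34959239-34959488 (minus strand): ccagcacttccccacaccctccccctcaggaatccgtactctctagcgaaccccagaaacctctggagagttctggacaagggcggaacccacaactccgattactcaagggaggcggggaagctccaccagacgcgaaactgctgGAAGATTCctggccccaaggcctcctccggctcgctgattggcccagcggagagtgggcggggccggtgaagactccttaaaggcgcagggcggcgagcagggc
Hspb1, chr5:135887669-135887918 (plus strand): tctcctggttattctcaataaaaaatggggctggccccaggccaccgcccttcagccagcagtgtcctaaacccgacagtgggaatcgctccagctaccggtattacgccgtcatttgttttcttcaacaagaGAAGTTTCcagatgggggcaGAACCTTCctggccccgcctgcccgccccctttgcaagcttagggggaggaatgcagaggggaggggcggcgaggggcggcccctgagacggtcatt
Hspa5, chr2:34771840-34772089 (plus strand): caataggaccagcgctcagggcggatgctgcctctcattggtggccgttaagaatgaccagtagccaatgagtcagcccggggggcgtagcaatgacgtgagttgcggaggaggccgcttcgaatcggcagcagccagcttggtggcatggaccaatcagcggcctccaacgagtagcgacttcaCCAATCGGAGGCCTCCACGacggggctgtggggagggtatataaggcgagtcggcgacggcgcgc
Hsp90b1, chr10:86705445-86705694 (minus strand): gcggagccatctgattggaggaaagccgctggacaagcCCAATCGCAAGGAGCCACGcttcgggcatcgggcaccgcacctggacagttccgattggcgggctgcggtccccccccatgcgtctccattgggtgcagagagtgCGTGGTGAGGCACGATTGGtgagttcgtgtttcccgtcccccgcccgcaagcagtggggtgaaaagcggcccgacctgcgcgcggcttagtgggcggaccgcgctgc

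The Hspa1a and Hspa1b stretches were the same at 247 of 250 bases, and in both the heat shock pair lay 104 bases before the start. Hspb1 held a pair at 117 and another at 97 bases, Hspa5 held the ER element at 65 bases, and Hsp90b1 held it at 212 and, on the opposite strand, at 107 bases. Motifs were counted on both strands in windows of 250 bases before to 50 bases after each start. The set of windows used covered 37 of the 46 members and 27025 genes in all, although RefSeq gives a position for all 46. The ER element was found in 2 of the 37 members (5.41%), Hspa5 and Hsp90b1, and in 37 of all genes (0.137%). The pair GAANNTTC was found in 8 of the 37 (21.6%) and in 9.04% of all genes. Those 8 members were Bag3, Dnaja1, Hspa1a, Hspa1b, Hspb1, Hspb6, Hspb8 and Hsph1. The opposite arrangement, TTCNNGAA, was in 3 members (Cct5, Dnajb4 and Hsph1) or 8.11%, against 9.6% of all genes, and the longer GAANNTTCNNGAA, which contains both, was in Hsph1 alone or 2.7%, against 0.662%. The antioxidant response element TGACNNNGC was in 4 members (Dnajb1, Dnajc28, Hspa12a and Hsph1) or 10.8%, against 14% of all genes. These matches describe letters in a window and are not evidence of binding. No window was found for Dnajc12, Dnajc22, Dnajc30, Dnajc5, Hsp90aa1, Hspa13, Hspa8, Hspb2 or Psmd7.

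Values are read counts scaled to library size (CPM), and the reads behind each library's column summed to between 3.48 and 5.40 M. Those reads made up 55.3% to 70.6% of the library size behind the scaling in controls, 46.3% to 48.3% in IRI, 42.1% to 45.3% in rhabdomyolysis and 44.4% to 47.3% in cisplatin, so controls and injured libraries did not overlap in that share. Scaling each library by its 75th percentile within the table moved the median difference of all genes by 0.11 in IRI, 0.14 in rhabdomyolysis and 0.08 in cisplatin. The deposited genes are a selection, since every gene lay at least 1.53-fold from the mean of the 8 controls in at least 1 injury. Of the 46 members, 24 (52.2%) lay at least 1.5-fold from the controls in IRI, 39 (84.8%) in rhabdomyolysis and 30 (65.2%) in cisplatin. Those shares were smaller than the 68.3%, 93.5% and 86.3% of all genes in the table. The 8 proximal tubule markers (Lrp2, Cubn, Slc34a1, Slc5a2, Slc22a6, Slc22a8, Aqp1 and Kap) were all in the table and none was at 0 throughout a group, as the label of renal cortex requires. Summed, they lay at 24749 to 46372 CPM in controls, 8023 to 13415 in IRI, 8069 to 9477 in rhabdomyolysis and 3995 to 7049 in cisplatin. Kap made up most of that sum, and the injuries did not keep one order from marker to marker. Against the controls 7 of the 8 fell in IRI and all 8 in rhabdomyolysis and in cisplatin, with median log2 differences of -1.69, -2.54 and -2.30, and between rhabdomyolysis and cisplatin 4 were higher and 4 lower. Of all genes tested 40.1%, 46.5% and 44% fell. In such bulk tissue, fewer cells of a type and less RNA per cell cannot be told apart. Of the distal nephron markers 4 of 6 were in the table, with sums of 1906 to 3193 CPM in controls, 486 to 877 in IRI, 566 to 796 in rhabdomyolysis and 456 to 587 in cisplatin. The single podocyte marker present, Podxl of 4, lay at 121 to 292, 276 to 361, 454 to 676 and 282 to 375 CPM in the same order, and the 4 hemoglobin genes summed to 644 to 2108, 636 to 947, 220.4 to 304 and 3.57 to 16.4 CPM.

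Chaperone and proteasome transcripts rose more often than they fell in all 3 injuries, with the largest median in rhabdomyolysis. With a 2-fold minimum as well, 5 members rose and 5 fell in IRI, where 15% of all genes tested rose and 15.2% fell. By the same rule 21 rose and 6 fell in rhabdomyolysis (all genes 30.8% and 34%), and 11 rose and 6 fell in cisplatin (24.3% and 21.5%). Of the 46 members, 43 had a mean of at least 1 CPM and were tested with limma on log2(CPM + 1), with Benjamini-Hochberg adjustment over the 5672 genes tested and a threshold of 0.05 on the adjusted p. On that scale a difference of 1 is about 2-fold, and the change of a gene with few reads is understated. In IRI 23 members were higher, 11 were lower and 9 did not pass. Over all genes tested the called share was 80.7%, with 40.6% higher and 40.1% lower. In rhabdomyolysis 29 were higher, 9 lower and 5 did not pass, against a background of 95.3%, with 48.8% higher and 46.5% lower. In cisplatin 26 were higher, 12 lower and 5 did not pass, against 91.8%, with 47.8% higher and 44% lower. The share of members called was thus at or under the background in each injury (79.1%, 88.4% and 88.4%), while the share that was higher (53.5%, 67.4% and 60.5%) lay above it. From here on, 3 log2 differences in a row stand in the order IRI, rhabdomyolysis and cisplatin, and a bare value in parentheses is a log2 difference from the matched controls. The median of the 43 was 0.38, 0.99 and 0.39, and over all genes tested it was 0.08, 0.31 and 0.30. On recovered reads the cisplatin order turned, with 0.38 for the members and 0.40 for all genes in edgeR and 0.31 and 0.35 in DESeq2.

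Across injuries, 18 members rose in all 3 and 9 fell in all 3. Over all genes tested 35.3% rose and 36.9% fell in all 3. The 18 were Bag2, Bag3, Cct3, Cct5, Dnajc5, Dnajc8, Hsp90aa1, Hspa13, Hspa1b, Hspa5, Hspb1, Hspb8, Psma5, Psma7, Psmb3, Psmb10, Psmd7 and Psmd11. The 9 were Dnajb12, Dnajc6, Dnajc12, Dnajc13, Dnajc19, Dnajc22, Dnajc28, Dnajc30 and Hspa12a, of which 8 are J proteins. The fitted difference was highest in rhabdomyolysis for 28 of the 43 and lowest there for 13, while over all genes tested it was highest there for 34.9% and lowest for 40.4%. All 4 libraries lay outside the range of all 8 controls for 26 members in IRI (17 above and 9 below), where the background was 64.8%. The same held for 35 members in rhabdomyolysis (26 above and 9 below), with a background of 85%, and for 29 in cisplatin (19 above and 10 below), with a background of 78.7%.

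**Figure D1:**
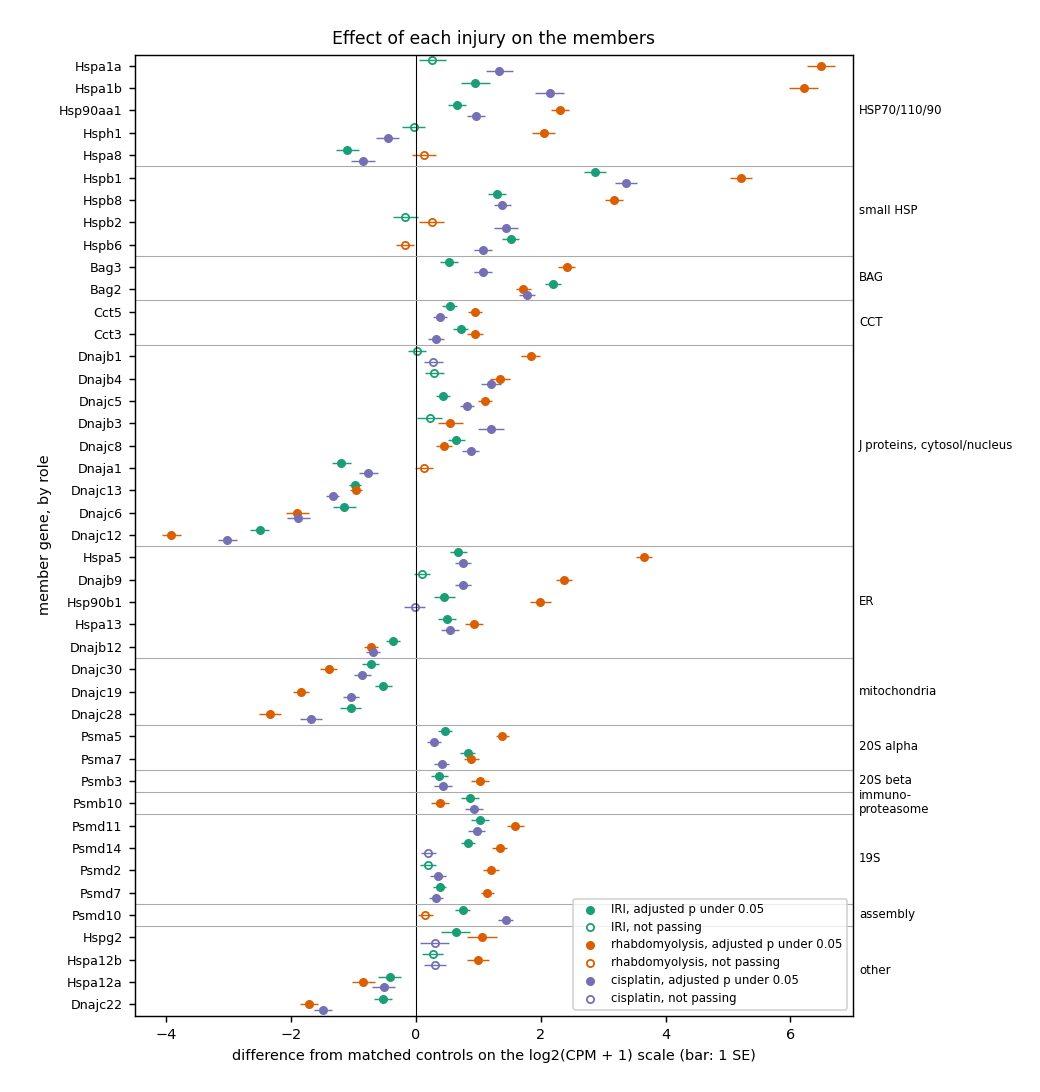
Log2 difference from the matched controls on the log2(CPM + 1) scale (horizontal axis) for each of the 43 tested members, grouped by role, with 1 point per injury and bars of 1 standard error, filled where the adjusted p was under 0.05. Hspa1a, Hspa1b, Hspb1 and Hspa5 stand furthest to the right, in rhabdomyolysis, at up to 6.49 for Hspa1a, while the mitochondrial J proteins lie left of 0 in all 3 injuries.

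The inducible cytosolic HSP70 genes had the largest differences of all members in rhabdomyolysis, and their levels were by far the highest there. Hspa1a, an HSP70 that is barely made by unstressed cells, was at 8.56 to 16.2 CPM (median 11.9) in the 8 controls and, in mice 1 to 4 of each injury in turn, at 14.3, 15.98, 13.2 and 18.8 CPM in IRI. It reached 2128, 801, 937 and 857 CPM in rhabdomyolysis and 29.3, 32.2, 31.1 and 25.4 CPM in cisplatin. All 4 rhabdomyolysis values lay far above every other library, the cisplatin values lay above all controls, and the IRI values overlapped the controls. The log2 difference was 6.49 (SE 0.22, adjusted p 1.2e-16) in rhabdomyolysis, 1.34 (SE 0.22, adjusted p 8.05e-06) in cisplatin and 0.26 (SE 0.22, adjusted p 0.272) in IRI. Its neighbour Hspa1b, which encodes nearly the same protein, was at 10.1 to 27.2 CPM (median 14.01) in controls and at 32.8, 42.9, 31.7 and 45.5 CPM in IRI. Hspa1b reached 1724, 649, 811 and 734 CPM in rhabdomyolysis and 43.7, 59.8, 60.7 and 49.2 CPM in cisplatin. Here all 12 injured libraries lay above all 8 controls, and the log2 difference was 0.95 (SE 0.23) in IRI, 6.21 (SE 0.23) in rhabdomyolysis and 2.14 (SE 0.23) in cisplatin. Of the 150-base stretches of the Hspa1a transcript, 38.1% also occur in Hspa1b, so how reads were divided between the pair is uncertain.

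Among the other cytosolic HSP70 and HSP90 genes, the inducible Hsp90aa1 rose in every injury and the constitutive Hspa8 fell in IRI and cisplatin. Hsp90aa1 had log2 differences of 0.65, 2.31 and 0.96. Its values were 397 to 759 CPM in controls and 2325 to 2868 CPM in rhabdomyolysis. Hsph1, an HSP110 that exchanges nucleotide on HSP70 and helps to dissolve aggregates, was at 80.4 to 175 CPM (median 113) in controls, and its values were 114, 125, 109 and 119 CPM in IRI, 624.5, 376, 419 and 414 in rhabdomyolysis and 75.1, 85.0, 82.2 and 72.0 in cisplatin. The 4 rhabdomyolysis values were the highest of all libraries (log2 difference 2.05, SE 0.18), the IRI values overlapped the controls (-0.03, adjusted p 0.867), and Hsph1 fell in cisplatin (-0.45, adjusted p 0.024) although its range met that of the controls. That fall did not pass without control 7 (-0.22, adjusted p 0.168) or without cisplatin mouse 4 (-0.41, adjusted p 0.0559), under 75th percentile scaling (-0.37, adjusted p 0.0537) or under quantile normalization (-0.32, adjusted p 0.0759). Hspa8, the constitutive HSC70, had 2004 to 4277 CPM (median 2758) in controls, 1645, 1292, 1634 and 1649.7 CPM in IRI, 2879, 2095, 2332 and 3641 in rhabdomyolysis and 1356, 1398, 1304 and 1403 in cisplatin. It fell below every control in IRI (-1.10, SE 0.19) and in cisplatin (-0.84, SE 0.19), and the rhabdomyolysis libraries overlapped the controls (0.13, adjusted p 0.517). Under quantile normalization the cisplatin difference of Hspa8 was 0.017 and no longer passed, and its rhabdomyolysis difference was 0.67 and passed.

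Of the 4 small heat shock proteins, 3 rose in IRI, 2 in rhabdomyolysis and 4 in cisplatin. None fell. The shares of all genes tested that rose were 40.6%, 48.8% and 47.8%, so the rhabdomyolysis count was near the background. Hspb1 (HSP25 in mice), which holds unfolded proteins and binds the actin cytoskeleton, was at 5.90 to 10.7 CPM (median 7.19) in controls and at 55.1, 69.4, 69.5 and 63.6 CPM in IRI. It reached 439, 229.7, 316 and 231 CPM in rhabdomyolysis and 68.5, 87.2, 83.1 and 85.9 CPM in cisplatin. No injured library overlapped a control, and the log2 difference was 2.87 (SE 0.18, adjusted p 9.1e-12) in IRI, 5.21 (SE 0.18, adjusted p 1.36e-16) in rhabdomyolysis and 3.36 (SE 0.18, adjusted p 2.24e-13) in cisplatin. Hspb8, which works with BAG3 in the disposal of aggregates by autophagy, also stood above all controls in every injury, with log2 differences of 1.30, 3.18 and 1.39 in the same order. Hspb6 (HSP20), best known from muscle, was at 6.46 to 10.4 CPM (median 8.97) in controls, with 22.4, 30.9, 22.6 and 26.3 CPM in IRI, 7.18, 7.59, 8.27 and 9.08 in rhabdomyolysis and 21.2, 21.0, 18.4 and 21.1 in cisplatin. It rose in IRI (1.52, SE 0.14) and cisplatin (1.08, SE 0.14) with no overlap, while rhabdomyolysis stayed within the control range (-0.17, adjusted p 0.226). Hspb2, another small heat shock protein known from muscle, was low, at 0.642 to 2.67 CPM (median 1.25) in controls, 0.787, 1.47, 1.49 and 1.14 CPM in IRI, 1.23, 1.38, 1.52 and 1.48 in rhabdomyolysis and 3.74, 5.05, 3.80 and 5.52 in cisplatin. Its cisplatin libraries alone lay above all controls (1.44, SE 0.20), and the differences in IRI (-0.17, adjusted p 0.423) and rhabdomyolysis (0.25, adjusted p 0.222) did not pass. Of the 5 muscle markers only Acta2, of smooth muscle, was in the table, at 21.4 to 32.8 CPM in controls, 54.5 to 109 in IRI, 114 to 261 in rhabdomyolysis and 31.1 to 55.7 in cisplatin. It was highest in rhabdomyolysis, where neither Hspb6 nor Hspb2 rose, and its part in their values was not tested. The lens and muscle chaperone Cryab, a further small heat shock protein outside the symbol rule, rose by 1.58, 2.99 and 2.92.

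Both BAG genes in the table rose in all injuries, as did 35.3% of all genes tested, in a different order. Bag3, an HSP70 exchange factor that directs clients to autophagy, was at 26.5 to 42.5 CPM (median 30.8) in controls and at 44.3, 54.3, 44.2 and 48.3 CPM in IRI, 205, 141, 172 and 172 in rhabdomyolysis and 64.3, 69.3, 68.0 and 65.8 in cisplatin. Bag2, which inhibits the HSP70-bound ubiquitin ligase CHIP, was at 15.5 to 22.7 CPM (median 18.9) in controls and at 83.1, 90.7, 98.6 and 105 CPM in IRI, 61.5, 67.9, 64.1 and 56.9 in rhabdomyolysis and 61.2, 62.9, 70.2 and 66.5 in cisplatin. All injured libraries of both genes exceeded all controls. Bag3 was highest in rhabdomyolysis, with log2 differences of 0.53 (SE 0.14), 2.41 (SE 0.14) and 1.07 (SE 0.14), whereas Bag2 was highest in IRI, with 2.20 (SE 0.12), 1.72 (SE 0.12) and 1.78 (SE 0.12). The IRI effect exceeded the rhabdomyolysis effect for Bag2 and was below it for Bag3, both past the threshold in the test of that difference.

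The 2 tested CCT chaperonin subunits, Cct3 and Cct5, rose by modest amounts in all 3 injuries, as did 35.3% of all genes tested. The median differences of all genes were 0.08, 0.31 and 0.30, so in cisplatin both lay close to the median. Cct6b, too low to test, had a mean of 1.77 CPM in controls and lower means of 0.156, 0.201 and 0.318 CPM in the injuries. Cct3 was at 95.8 to 143 CPM (median 109.8) in controls, 192, 188, 201 and 214 CPM in IRI, 199.6, 209.9, 242 and 219.8 in rhabdomyolysis and 126, 144, 154 and 141 in cisplatin. Cct5 was at 151 to 219 CPM (median 173) in controls, 275, 261, 280.4 and 268 CPM in IRI, 318, 330.0, 369.9 and 351 in rhabdomyolysis and 207, 232, 243 and 243 in cisplatin. For both, IRI and rhabdomyolysis lay above all controls and cisplatin overlapped them. The log2 differences of Cct3 were 0.71 (SE 0.13), 0.95 (SE 0.13) and 0.32 (adjusted p 0.0192), and those of Cct5 were 0.54 (SE 0.12), 0.95 (SE 0.12) and 0.39 (adjusted p 0.00365). The cisplatin call of Cct3 was lost without control 6 (0.27, adjusted p 0.0642), control 8 (0.29, adjusted p 0.053) or cisplatin mouse 3 (0.28, adjusted p 0.0581), and in DESeq2 (adjusted p 0.121).

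The cytosolic and nuclear J proteins, the partners that bring clients to HSP70 and stimulate its ATPase, had no common direction, and in cisplatin their shares were near those of all genes. Of the 9 tested, 2 rose and 4 fell in IRI, 5 rose and 3 fell in rhabdomyolysis, and 4 rose and 4 fell in cisplatin. Of all genes tested 40.6% rose and 40.1% fell in IRI, 48.8% and 46.5% in rhabdomyolysis, and 47.8% and 44% in cisplatin. Dnajb1 (HSP40), the main heat-inducible J protein, was at 39.6 to 61.1 CPM (median 45.0) in controls, with 49.6, 55.7, 52.1 and 51.0 CPM in IRI, 230.5, 118, 142 and 159.5 in rhabdomyolysis and 51.9, 53.6, 54.5 and 51.6 in cisplatin. It rose in rhabdomyolysis, above all controls (1.84, SE 0.15), and did not pass in IRI (0.01, adjusted p 0.93) or cisplatin (0.28, adjusted p 0.0803), though without rhabdomyolysis mouse 1 in the model the cisplatin value passed (0.28, adjusted p 0.031), as it did under 75th percentile scaling (0.37, adjusted p 0.0207). Dnajb4, a close relative, rose in rhabdomyolysis, where it reached 48.3 to 70.6 CPM (1.35, SE 0.16), and in cisplatin, at 44.5 to 59.2 CPM, both above all controls. In IRI its difference of 0.30 (adjusted p 0.0912) did not pass, and it did without control 2 (0.40, adjusted p 0.0332) or IRI mouse 3 (0.41, adjusted p 0.0277), under 75th percentile scaling (0.42, adjusted p 0.0158) and with all 8 controls (0.46, adjusted p 0.00675). Dnajb3, a low transcript at 0.267 to 1.41 CPM (median 0.534) in controls, had 1.44, 0.666, 1.03 and 1.72 CPM in IRI, 1.04, 0.69, 1.43 and 1.14 in rhabdomyolysis and 1.52, 1.92, 3.57 and 2.23 in cisplatin. Only cisplatin lay above all controls (1.202, SE 0.20), while rhabdomyolysis passed with overlap (0.55, adjusted p 0.0136) and IRI did not pass (0.22, adjusted p 0.317). With all 8 controls the rhabdomyolysis call was lost (0.34, adjusted p 0.0825) and IRI passed (0.43, adjusted p 0.0392), and quantile normalization also ended the rhabdomyolysis call (0.18, adjusted p 0.406).

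Dnaja1, a partner of the constitutive HSC70, had falls in IRI (-1.20, SE 0.15) and cisplatin (-0.76, SE 0.15) and 0.12 (adjusted p 0.408) in rhabdomyolysis. Its values were 321 to 668 CPM in controls, 216 to 244 in IRI, 374 to 443 in rhabdomyolysis and 213 to 223 in cisplatin. The rhabdomyolysis difference of Dnaja1 passed at 0.31 under 75th percentile scaling and at 0.74 under quantile normalization. Dnajc8, which is found with splicing factors, rose in all 3 injuries and least in rhabdomyolysis, with 44.2 to 81.1 CPM (median 56.7) in controls, 96.9, 98.3, 103 and 107 CPM in IRI, 81.96, 74.4, 71.7 and 67.7 in rhabdomyolysis and 106, 111, 92.3 and 90.3 in cisplatin. The IRI and cisplatin libraries lay above all controls, with log2 differences of 0.64 (SE 0.14) and 0.88 (SE 0.14), and the rhabdomyolysis libraries overlapped them (0.45, SE 0.14). Dnajc5, the cysteine string protein of secretory vesicles, lay above all controls in all 12 injured libraries (0.43, 1.11 and 0.82).

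Falls in all 3 injuries among the J proteins were led by Dnajc12, a co-chaperone of the aromatic amino acid hydroxylases. Dnajc12 was at 249.7 to 332 CPM (median 304) in controls and fell to 58.7, 47.5, 57.6 and 48.6 CPM in IRI, 20.7, 17.7, 14.5 and 19.6 in rhabdomyolysis and 39.8, 27.3, 27.6 and 45.9 in cisplatin. All injured libraries lay below all controls, and the log2 difference was -2.51 (SE 0.15, adjusted p 5.4e-12), -3.92 (SE 0.15, adjusted p 8.66e-16) and -3.03 (SE 0.15, adjusted p 7.62e-14). Dnajc6 (auxilin), which uncoats clathrin vesicles, fell by 1.15, 1.90 and 1.88 on the log2 scale, and Dnajc13, an endosomal J protein, fell by 0.98, 0.96 and 1.34, both with no overlap. Dnajc22, a J protein with membrane-spanning segments, was at 86.4 to 139 CPM (median 122) in controls, 82.5, 57.9, 76.8 and 73.1 CPM in IRI, 32.8, 44.3, 41.9 and 34.7 in rhabdomyolysis and 52.8, 40.2, 35.2 and 53.8 in cisplatin. It too lay below all controls in each injury, with log2 differences of -0.53 (SE 0.15), -1.71 (SE 0.15) and -1.49 (SE 0.15). The proximal tubule markers, given above, fell in the same injuries as these J proteins, and their part in the falls was not tested.

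**Figure D2:**
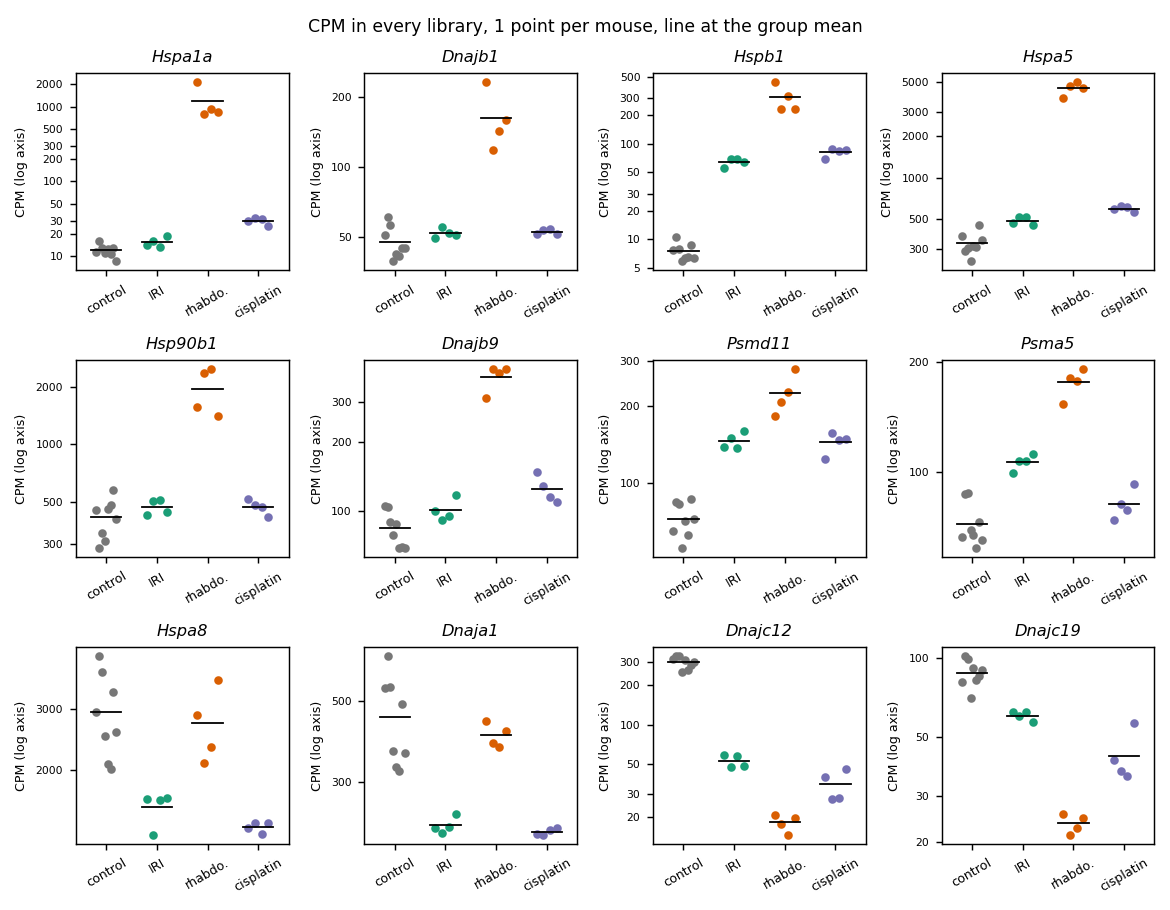
CPM of 12 members on a log axis (vertical) in each library, with 1 point per mouse in the 8 controls and in the 4 mice of each injury, and a bar at the group mean. Hspa1a stands at 801 to 2128 CPM in rhabdomyolysis and at 8.56 to 16.2 CPM in controls, while Dnaja1 lies lower in IRI and cisplatin than in rhabdomyolysis.

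Of the 5 ER members, 3 rose and 1 fell in IRI, 4 rose and 1 fell in rhabdomyolysis, and 3 rose and 1 fell in cisplatin. The shares of all genes that rose in these injuries were 40.6%, 48.8% and 47.8%, and those that fell were 40.1%, 46.5% and 44%. The largest rises were in rhabdomyolysis. Hspa5 (BiP), the abundant ER member of the HSP70 family, which also holds the sensors of ER stress inactive, was at 246 to 451 CPM (median 315) in controls and at 464, 514, 514 and 451 CPM in IRI. It reached 3829, 4666, 4976 and 4498 CPM in rhabdomyolysis and 595, 621, 608 and 558 CPM in cisplatin. The rhabdomyolysis values were all far higher than any other library, cisplatin also lay above all controls, and IRI lay above its own 4 controls. The log2 difference was 0.68 (SE 0.13, adjusted p 8.13e-05) in IRI, 3.66 (SE 0.13, adjusted p 2.54e-16) in rhabdomyolysis and 0.75 (SE 0.13, adjusted p 1.8e-05) in cisplatin. Hsp90b1 (GRP94), the ER HSP90, was at 285 to 579 CPM (median 428) in controls, with 428, 504, 509.7 and 442 CPM in IRI, 1566, 2359.9, 2488 and 1412 in rhabdomyolysis and 517, 481, 471 and 418 in cisplatin. Only rhabdomyolysis cleared the controls (1.99, SE 0.17), IRI passed with overlap (0.45, adjusted p 0.0182) and cisplatin did not pass (-0.02, adjusted p 0.915). The IRI call was lost without control 2 (0.37, adjusted p 0.0673) and against all 8 controls (0.22, adjusted p 0.225), and under quantile normalization the cisplatin difference became 0.47 and passed.

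Dnajb9 (ERdj4), a J protein that regulates BiP and the degradation of misfolded ER proteins, was at 68.5 to 105 CPM (median 82.5) in controls, with 99.3, 91.1, 94.5 and 117 CPM in IRI, 312, 415, 401 and 416 in rhabdomyolysis and 147, 128, 114 and 109 in cisplatin. The rhabdomyolysis and cisplatin libraries lay above all controls (2.37, SE 0.13, and 0.75, SE 0.13), and IRI overlapped them (0.10, adjusted p 0.48) but passed under quantile normalization (0.30, adjusted p 0.0427) and with all 8 controls (0.27, adjusted p 0.0499). Hspa13, an HSP70 relative of the ER and microsomes, rose in all 3 injuries, by 0.49, 0.93 and 0.54. Dnajb12, a J protein anchored in the ER membrane, moved the other way, with 69.8 to 95.1 CPM (median 86.5) in controls, 69.8, 59.3, 67.2 and 63.7 CPM in IRI, 45.9, 56.1, 49.7 and 59.7 in rhabdomyolysis and 55.1, 50.4, 49.4 and 60.6 in cisplatin. It fell in all 3, with log2 differences of -0.37 (SE 0.11), -0.72 (SE 0.11) and -0.69 (SE 0.11), and only the IRI libraries overlapped the controls. The IRI call was lost under quantile normalization (-0.21, adjusted p 0.0513).

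Other genes of ER folding and the unfolded protein response were likewise highest in rhabdomyolysis by their median. Of a list of 25 such genes 12 were in the table, and of these 10 rose and 1 fell in IRI, 11 rose and none fell in rhabdomyolysis, and 7 rose and 1 fell in cisplatin, where 40.6%, 48.8% and 47.8% of all genes tested rose in the same order of injuries. The median log2 differences of the list were 0.70, 2.21 and 0.47, beside all-gene medians of 0.08, 0.31 and 0.30. Hyou1, the ER relative of HSP110, rose by 0.89, 2.32 and 0.64. The stress transcription factor Atf4 rose by 0.77, 2.53 and 0.86, and its target Ddit3 (CHOP) by 0.89, 3.36 and 2.09. Herpud1, a scaffold of ER-associated degradation, was the exception, with falls in IRI (-1.62, adjusted p 3.55e-08) and cisplatin (-1.26, adjusted p 7.58e-07) and -0.28 (adjusted p 0.127) in rhabdomyolysis. In the cytosolic list of co-chaperones, 5 of 24 genes were in the table, of which 3 rose and none fell in IRI, and 4 rose and 1 fell in rhabdomyolysis and in cisplatin, beside the same shares of all genes.

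The 3 J proteins of the mitochondrial list fell in every injury, as did 36.9% of all genes tested. Dnajc28, a J protein of little-studied function, was at 22.0 to 30.2 CPM (median 26.1) in controls and at 11.0, 11.1, 14.01 and 14.2 CPM in IRI, 3.78, 4.33, 4.47 and 4.31 in rhabdomyolysis and 10.4, 4.34, 7.26 and 8.13 in cisplatin. No injured library overlapped a control, and the log2 differences were -1.05 (SE 0.17), -2.34 (SE 0.17) and -1.68 (SE 0.17). Dnajc19, part of the import motor of the inner membrane, fell by 0.52, 1.85 and 1.04 on the log2 scale, and Dnajc30, which binds ATP synthase, fell by 0.73, 1.40 and 0.86. All injured libraries of both genes lay below all controls, and each of the 3 had its lowest fitted value in rhabdomyolysis. A further list of mitochondrial folding and proteolysis had 3 of 8 genes in the table, and these, Trap1, Clpx and Hscb, fell in all 3 injuries too, against the same 36.9%. Trap1, the mitochondrial HSP90, fell by 0.87, 1.23 and 0.64. Proximal tubule cells are rich in mitochondria, their markers fell in the same injuries, and the part of those cells in these falls was not tested.

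**Figure D3:**
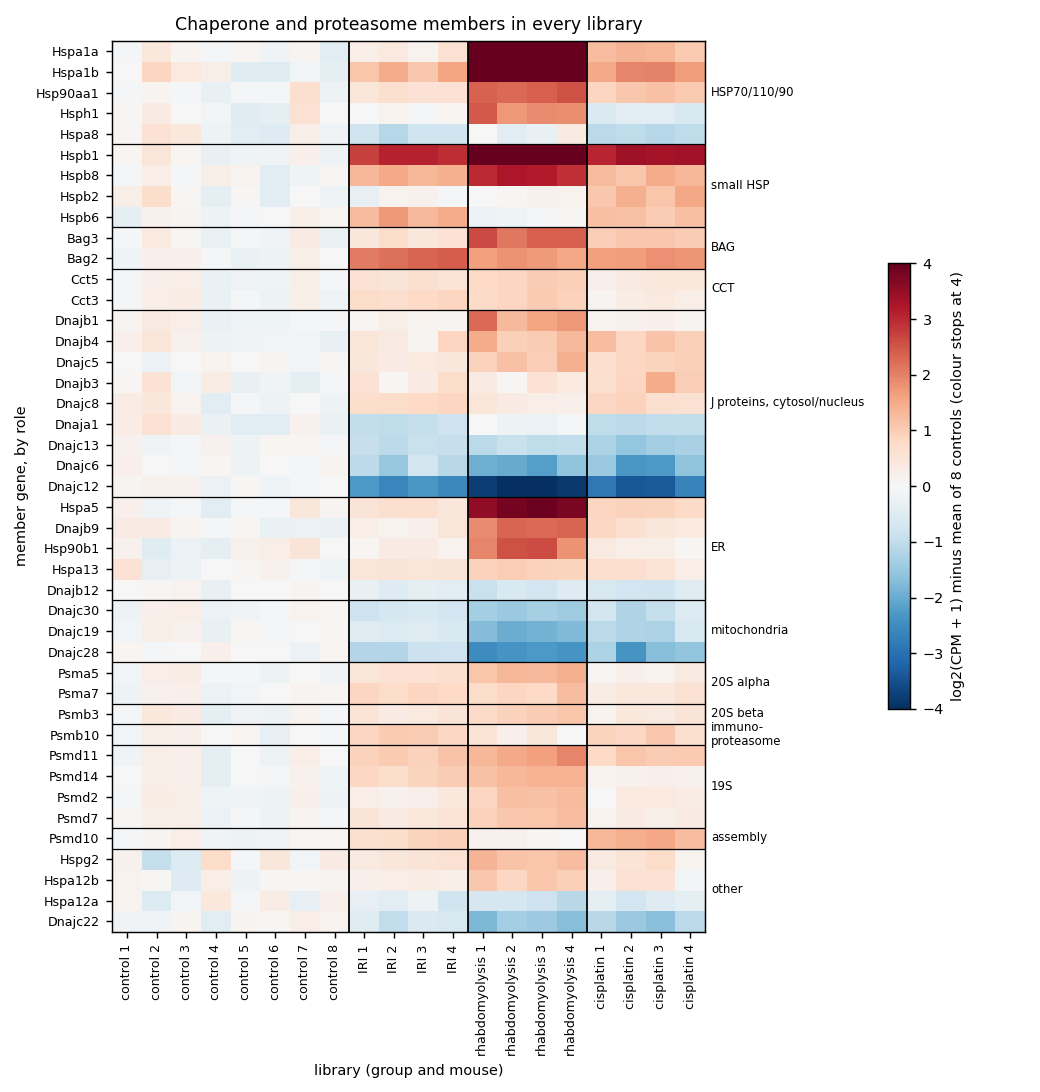
Log2(CPM + 1) minus the mean of the 8 controls (colour, stopped at 4 in either direction) for the 43 tested members (rows, by role) in each of the 20 libraries (columns, by group). The rows of Hspa1a, Hspa1b, Hspb1 and Hspa5 are deep red in the 4 rhabdomyolysis columns, and Dnajc12 and Dnajc28 are blue across all 12 injured columns.

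Most proteasome subunits in the table rose, by the largest amounts in rhabdomyolysis, and none fell. Of the 9 tested, 8 rose in each injury, though a different member did not pass each time. For the 7 subunits of the 20S core and the 19S cap (Psma5, Psma7, Psmb3, Psmd2, Psmd7, Psmd11 and Psmd14) 6 rose in IRI, 7 in rhabdomyolysis and 6 in cisplatin, with median log2 differences of 0.46, 1.202 and 0.35. The medians of all genes tested were 0.08, 0.31 and 0.30, so in cisplatin the subunits lay close to them, and 40.6%, 48.8% and 47.8% of all genes were higher. In DESeq2 3 of the 6 cisplatin calls did not pass, Psma5 (adjusted p 0.122), Psmd2 (0.0843) and Psmd7 (0.0757). All 7 were also higher in rhabdomyolysis than in cisplatin, where 21.4% of all genes tested were higher. None of the 6 genes of the 19S ATPase ring was in the table. It held 2 of 8 listed genes of the 20S alpha ring, 1 of 7 of the constitutive beta ring and 4 of 11 19S non-ATPases. Genes steady in all 3 injuries are not in the table. These counts therefore describe only subunits that passed that selection, in part through their rhabdomyolysis values, and not the whole proteasome.

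Psmd11, the cap subunit that bridges to the core, rose most of the 7 in each injury, with 55.8 to 86.4 CPM (median 71.8) in controls, 138, 150.1, 137 and 159 CPM in IRI, 182, 208, 227 and 278 in rhabdomyolysis and 125, 156, 147 and 149 in cisplatin. No injured library overlapped a control, and the log2 differences were 1.02 (SE 0.14, adjusted p 1.21e-06), 1.59 (SE 0.14, adjusted p 4.99e-10) and 0.97 (SE 0.14, adjusted p 1.43e-06). Psmd14, the deubiquitinase of the cap, rose in IRI (0.83, SE 0.12) and rhabdomyolysis (1.34, SE 0.12) and did not pass in cisplatin (0.20, adjusted p 0.121), where 75th percentile scaling (0.28, adjusted p 0.0138) and quantile normalization (0.29, adjusted p 0.00925) brought it past the threshold. Psmd7, its partner in the cap, rose by 0.38, 1.15 and 0.33. Psmd2, a scaffold that receives ubiquitin carriers, did not pass in IRI (0.19, adjusted p 0.159) and rose in rhabdomyolysis (1.202, SE 0.13) and cisplatin (0.35, adjusted p 0.0131). Its IRI difference passed under 75th percentile scaling (0.32, adjusted p 0.0147), under quantile normalization (0.60, adjusted p 6.33e-05) and with all 8 controls (0.27, adjusted p 0.0284).

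In the outer ring of the core, Psma5 was at 61.7 to 87.5 CPM (median 68.0) in controls, with 99.4, 107, 107 and 112 CPM in IRI, 154, 181, 178 and 192 in rhabdomyolysis and 73.5, 81.8, 78.5 and 92.4 in cisplatin. Psma7 was at 100.2 to 137 CPM (median 122) in controls, with 214, 199.8, 214 and 208 CPM in IRI, 199, 214, 208 and 279 in rhabdomyolysis and 145, 158, 159 and 181 in cisplatin. Psma7 cleared all controls in the 3 injuries (0.83, 0.88 and 0.41), and Psma5 did so in IRI (0.46, SE 0.11) and rhabdomyolysis (1.39, SE 0.11) but overlapped them in cisplatin (0.28, adjusted p 0.0177). The cisplatin call of Psma5 was lost without control 6 (0.25, adjusted p 0.053), without cisplatin mouse 4 (0.22, adjusted p 0.0684) and with all 8 controls (0.18, adjusted p 0.083). Psmb3, a structural subunit of the inner ring, was at 66.4 to 118 CPM (median 82.1) in controls, with 128, 109.6, 114 and 125 CPM in IRI, 147, 166, 177 and 187 in rhabdomyolysis and 95.8, 118, 111 and 125 in cisplatin. Only rhabdomyolysis cleared the controls, and the log2 differences were 0.38 (adjusted p 0.0208), 1.02 (SE 0.14) and 0.43 (SE 0.14). The IRI call of Psmb3 was lost without control 1 (0.32, adjusted p 0.0612), control 4 (0.22, adjusted p 0.116) or IRI mouse 1 (0.34, adjusted p 0.0554), and in DESeq2 (adjusted p 0.112).

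A pair of proteasome genes had profiles unlike the core and cap. Psmb10, the catalytic subunit that replaces a constitutive one in the immunoproteasome of immune and interferon-exposed cells, was at 8.02 to 12.4 CPM (median 10.2) in controls, with 19.8, 22.4, 21.9 and 19.2 CPM in IRI, 15.8, 12.2, 14.5 and 10.2 in rhabdomyolysis and 20.0, 18.98, 23.0 and 16.6 in cisplatin. IRI (0.86, SE 0.14) and cisplatin (0.93, SE 0.14) lay above all controls, and rhabdomyolysis passed with overlap (0.38, adjusted p 0.0154), a call lost without control 6 (0.30, adjusted p 0.0657) or rhabdomyolysis mouse 1 (0.30, adjusted p 0.0665) and under quantile normalization (0.29, adjusted p 0.0568). Of 12 leukocyte markers 8 were in the table and none was at 0 throughout a group. Their sum was 66.9 to 92.1 CPM in controls, 84.4 to 107 in IRI, 89.6 to 203 in rhabdomyolysis and 157 to 223 in cisplatin. Csf1r, of resident macrophages, made up most of the control sum and fell in all 3 injuries. Of the 8, 6 rose in IRI, 7 in rhabdomyolysis and 6 in cisplatin (all genes 40.6%, 48.8% and 47.8%), with median log2 differences of 1.46, 1.83 and 1.53. Cd68, of macrophages, had a mean of 3.71 CPM in controls, 16.01 in IRI, 33.3 in rhabdomyolysis and 90.7 in cisplatin. Most of the markers did not share that order. The means of Itgam, Lyz2, Itgb2, Ccr2, S100a8 and S100a9 were higher in rhabdomyolysis than in cisplatin. Between these injuries Cd68 was lower in rhabdomyolysis (log2 difference -1.43) and S100a9 was higher (log2 difference 0.75, adjusted p 0.0378). The other markers did not pass in that contrast. The part of leukocytes in the Psmb10 values was not tested. Psmd10 (gankyrin), an assembly chaperone of the cap, was at 22.9 to 32.5 CPM (median 26.7) in controls, with 41.8, 44.1, 50.1 and 53.0 CPM in IRI, 29.97, 29.9, 27.6 and 27.0 in rhabdomyolysis and 68.3, 74.0, 79.0 and 64.5 in cisplatin. It rose with no overlap in IRI (0.75, SE 0.12) and cisplatin (1.44, SE 0.12) and did not pass in rhabdomyolysis (0.15, adjusted p 0.214), where the core and cap subunits were highest. Under 75th percentile scaling its rhabdomyolysis difference passed (0.33, adjusted p 0.00698).

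Of 17 further genes of the ubiquitin system 4 were in the table, and these 4, named after their values were seen, rose in rhabdomyolysis and cisplatin and did not pass in IRI. Among all genes tested 48.8% rose in rhabdomyolysis, 47.8% in cisplatin and 40.6% in IRI. Zfand2a, a heat-inducible protein that associates with the 19S cap, had log2 differences of 0.07 (adjusted p 0.601) in IRI, 2.99 in rhabdomyolysis and 1.25 in cisplatin. Sqstm1 (p62), which carries ubiquitinated cargo to autophagy, had 0.02 (adjusted p 0.922), 2.12 and 0.45. The proteasome-bound deubiquitinase Usp14 had 0.16 (adjusted p 0.29), 1.26 and 0.57, and Zfand5, an activator of the proteasome, had 0.11 (adjusted p 0.397), 1.45 and 0.51.

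The symbol rule also drew in genes that are not folding chaperones. Hspg2 encodes perlecan, a heparan sulfate proteoglycan of basement membranes, and was at 13.4 to 44.9 CPM (median 28.0) in controls, with 34.6, 37.2, 38.5 and 41.9 CPM in IRI, 70.6, 60.5, 59.1 and 64.6 in rhabdomyolysis and 34.8, 39.9, 45.4 and 29.7 in cisplatin. It rose in rhabdomyolysis, above all controls (1.06, SE 0.24), did not pass in cisplatin (0.30, adjusted p 0.231) and passed in IRI (0.63, adjusted p 0.0185) but not without control 2 (0.36, adjusted p 0.116) or control 3 (0.50, adjusted p 0.0729). Its IRI call was also lost on recovered reads in edgeR (adjusted p 0.0556) and DESeq2 (0.0544), and with all 8 controls its cisplatin difference passed (0.45, adjusted p 0.0445). Hspa12b, a distant HSP70 relative known from endothelium, was at 2.71 to 5.32 CPM (median 4.52) in controls, with 5.11, 5.33, 5.51 and 5.26 CPM in IRI, 10.2, 8.47, 10.5 and 9.31 in rhabdomyolysis and 5.02, 7.07, 6.81 and 3.87 in cisplatin. Its rhabdomyolysis libraries alone lay above all controls (0.99, SE 0.17), and IRI (0.27, adjusted p 0.158) and cisplatin (0.30, adjusted p 0.102) did not pass, the latter passing without cisplatin mouse 4 (0.44, adjusted p 0.0202) and with all 8 controls (0.31, adjusted p 0.0478). Of 5 endothelial markers Pecam1 and Cdh5 were in the table, and their sum was 57.6 to 133 CPM in controls, 109 to 136 in IRI, 223 to 295 in rhabdomyolysis and 126 to 189 in cisplatin. It was highest in rhabdomyolysis, as were Hspg2 and Hspa12b, and its part in those rises was not tested. Hspa12a, the paralogue of Hspa12b, fell in rhabdomyolysis (-0.84, SE 0.18), cisplatin (-0.52, SE 0.18) and IRI (-0.42, adjusted p 0.0394), and the IRI call was lost without control 1, 3 or 4 or IRI mouse 2 or 4 (adjusted p 0.0922, 0.0506, 0.169, 0.0601 and 0.148) and under 75th percentile scaling (-0.30, adjusted p 0.166).

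The 3 members under a mean of 1 CPM were not tested. Cct6b, a CCT subunit known from testis, was at 0.575 to 2.57 CPM in controls, 0.114 to 0.262 in IRI, 0.189 to 0.227 in rhabdomyolysis and 0 to 0.581 in cisplatin. Dnajb13, a J protein of motile cilia and sperm tails, was at 0 to 0.165, 0.533 to 1.18, 0 to 0.296 and 0.775 to 1.82 CPM in the same order, and Psme2b at 0.141 to 1.76, 0.524 to 1.26, 0.945 to 2.17 and 0.484 to 1.41 CPM. The reading frame of Psme2b differs from that of the proteasome activator Psme2 at 5 of 720 bases, so its few reads are of uncertain origin.

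Compared directly, most chaperone and proteasome transcripts were higher in rhabdomyolysis kidneys than in cisplatin kidneys. Of the 43 members 27 were higher in rhabdomyolysis, 10 were lower and 6 did not pass, while over all genes tested 54.1% differed, 21.4% higher and 32.7% lower. With a 2-fold minimum 13 members were higher and 3 lower, against 5.01% and 11.1% of all genes. The median difference of the members was 0.59 and that of all genes was -0.09. The 5 furthest apart were Hspa1a (5.16, SE 0.22, adjusted p 4.31e-14), Hspa1b (4.07, SE 0.23, adjusted p 4.02e-12), Hspa5 (2.91, SE 0.13, adjusted p 1.12e-13), Hsph1 (2.50, SE 0.18, adjusted p 2.7e-10) and Hsp90b1 (2.01, SE 0.17, adjusted p 2.05e-09). The 4 libraries of either injury did not overlap for any of these 5. The 10 that were lower in rhabdomyolysis were Dnajb3, Dnajc8, Dnajc12, Dnajc19, Dnajc28, Dnajc30, Hspb2, Hspb6, Psmb10 and Psmd10.

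By compartment, 14 of the 22 tested cytosolic chaperones and co-chaperones were higher in rhabdomyolysis than in cisplatin and 5 were lower, with a median of 0.59. Of the 5 ER members 4 were higher and none was lower, where 21.4% and 32.7% of all genes were (median 1.62), and the 7 core and cap subunits had a median of 0.82. Against the controls, the median of the cytosolic members was 0.37 in IRI, 1.03 in rhabdomyolysis and 0.92 in cisplatin, while that of the ER members was 0.45, 1.99 and 0.54.

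Because IRI lies in the other identifier range, its effect against its own controls was set against the effect of each further injury. Against rhabdomyolysis, the IRI effect was lower for 23 members, higher for 9 and did not pass for 11, and over all genes tested 52% passed, with 28.6% higher and 23.4% lower. With a 2-fold minimum it was higher for 5 members and lower for 15, against 12.6% and 10% of all genes. The median of the members was -0.51 and that of all genes was 0.02. The 5 furthest apart were Hspa1a (-6.23, SE 0.31, adjusted p 2.34e-12), Hspa1b (-5.26, SE 0.33, adjusted p 9e-11), Hspa5 (-2.98, SE 0.19, adjusted p 9e-11), Hspb1 (-2.34, SE 0.25, adjusted p 2.8e-07) and Dnajb9 (-2.28, SE 0.18, adjusted p 5.56e-09). The 9 with a higher IRI effect were Bag2, Hspb6 and Psmd10, which rose more in IRI, and Dnajc6, Dnajc12, Dnajc19, Dnajc22, Dnajc28 and Dnajc30, which fell less.

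The IRI effect differed from the cisplatin effect for the fewest members. It was higher for 4 members, lower for 8 and did not pass for 31, against 30.3% of all genes tested, 13.5% higher and 16.8% lower, and the medians were -0.04 for the members and -0.05 for all genes. With a 2-fold minimum it was higher for none and lower for 3, against 5.45% and 8.74% of all genes. The split moved with the scaling and with the controls used. Of 12 calls 33.3% were higher, against 57.9% of 19 under 75th percentile scaling, 57.9% of 19 under quantile normalization and 61.9% of 21 with all 8 controls. The 5 furthest apart were Hspb2 (-1.61, SE 0.28, adjusted p 0.000158), Hspa1b (-1.19, SE 0.33, adjusted p 0.00812), Hspa1a (-1.08, SE 0.31, adjusted p 0.0112), Dnajb3 (-0.98, SE 0.29, adjusted p 0.0122) and Dnajc22 (0.95, SE 0.21, adjusted p 0.00127). The first 4 rose more in cisplatin, and Dnajc22 fell less in IRI. With all 8 controls the difference for Hspa1b did not pass (-0.47, adjusted p 0.154).

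The rhabdomyolysis mice did not rank alike across these genes. Mouse 1 was the lowest of the 4 for 7 of the 7 core and cap subunits and mouse 4 was the highest for all 7, whereas over all genes tested mouse 1 was lowest for 26.2% and mouse 4 highest for 34.8%. Among the 22 cytosolic members mouse 1 was highest for 10 and lowest for 6, and over all genes it was highest for 26.9%. The 10 included Hspa1a, Hspa1b, Hsph1, Dnajb1, Hspb1 and Bag3, whereas Hsp90aa1 and Hspa8 were highest in mouse 4 and Hspb8 in mouse 2. Mouse 1 had 2128 CPM of Hspa1a, and the others had 801, 937 and 857. Of the 5 ER members mouse 1 was lowest for 3 (Hspa5, Dnajb9 and Dnajb12) and mouse 4 for 2 (Hsp90b1 and Hspa13), and of the 12 further ER genes mouse 1 was lowest for 4, mouse 4 lowest for 8 and mouse 3 highest for 9. Over all genes mouse 4 was lowest for 29.5% and mouse 3 highest for 21%. Among the cell markers, mouse 1 had 261 CPM of the smooth muscle actin Acta2 (114 to 151 in the others) and 18.8 CPM of the neutrophil gene S100a9 (8.46 to 9.42). Of the other leukocyte markers, S100a8, Itgam and Csf1r were also highest in mouse 1, while Cd68, Lyz2, Itgb2 and Ccr2 were highest in mouse 3. Lyz2, for example, was at 46.4 CPM in mouse 1 and 59.3 CPM in mouse 3. Mouse 1 had the lowest values of the proximal tubule genes Lrp2, 147 CPM (225 to 249.5 in the others), and Cubn, 32.9 CPM (47.0 to 56.1). It was also lowest for Aqp1 and Kap, but not for Slc34a1, Slc5a2, Slc22a6 or Slc22a8. For Slc34a1 it had 1301 CPM (1048 to 1363 in the others) and for Slc5a2 289.6 CPM (168 to 306). The part of these cell types in the orders was not tested. In cisplatin, mouse 1 was likewise lowest for 7 of 7 core and cap subunits, against 24% of all genes. These orders were noticed in the values and were not tested, and every rhabdomyolysis mouse lay above all controls for Hspa1a, Hspa5 and Psmd11.

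**Figure D4:**
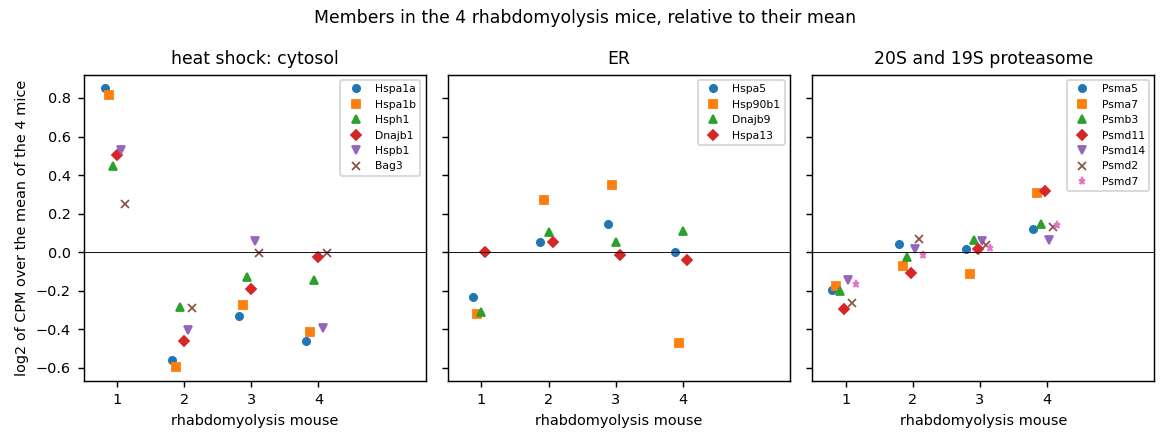
Log2 of each rhabdomyolysis mouse's CPM over the mean of the 4 mice (vertical axis), by mouse (horizontal axis), with 1 point per gene and mouse. Separate panels show 6 cytosolic heat shock genes picked after their values were seen, 4 ER members and the core and cap proteasome subunits. Mouse 1 lies above the mean for the heat shock genes and below it for the proteasome subunits, where mouse 4 is highest for 7 of 7.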

How the data were processed

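The authors deposited 1 table of normalized values for 6025 genes and 20 libraries, whose behaviour is that of CPM on an effective library size they did not define. The submitters' processing notes name FastQC, Bowtie2 2.1.0, RSEM 1.2.15, edgeR, GRCm38 and mm10. Which tool made the values, and with which settings, is not given in the sources used here. Per the labels' protocols, polyadenylated RNA was sequenced from stranded libraries as 150-bp pairs with 20 M reads planned per library. Within each library 100% of values were whole multiples of 1 step (within 0.01), so whole reads were recovered. For cisplatin mouse 2 the step was 0.101 CPM, and no value lay further than 5.07e-05 from a whole read. Effective sizes were 6.07 to 7.75 M in controls and 7.51 to 10.6 M in injured libraries, of which the table holds 55.3% to 70.6% and 42.1% to 48.3%. Among 46 pairs of libraries within a group, chi-square per degree of freedom was 6.20 to 60.8, so none was a duplicate.

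Values were analysed as log2(CPM + 1), a pseudocount of 1, with limma 3.58.1 in R 4.3.3. The model had 5 cells (the controls of each identifier range and the 3 injuries), with a mean-variance trend in the empirical Bayes step. The 5672 genes whose mean reached 1 CPM were tested, with Benjamini-Hochberg adjustment per contrast, and the code was tested on simulated data. Because the table holds only genes that differ from the controls in at least 1 injury, adjusted p-values describe that selection. Recovered reads were refitted with edgeR 4.0.16 and DESeq2 1.42.0. The other alternatives were a pseudocount of 0.1, no minimum or a minimum of 5 CPM, quantile normalization, 75th percentile scaling, all 8 controls, no trend, a 2-fold minimum, a replicate block and leaving out each library.

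The symbol rule uses no values, but it and the gene lists were chosen with earlier results of these data known. Values in every injured library, with the range and median of the controls, are given for the member with the largest fitted rise and fall in each role list and injury, and for the 5 with the largest difference in each of the 3 contrasts between injuries. Marker lists covered proximal tubule, distal nephron, podocyte, endothelium, leukocytes, muscle and erythrocytes. Promoters came from RefSeq on GRCm38.p6, and shared 150-base stretches from GENCODE transcripts.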

Additional observations from a re-analysis of the deposited data

Results flagged for a closer look

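In 6 groups of libraries 1 value lay far from the others, by the gap to its nearest neighbour divided by the whole range of the group. With 116 groups examined, chance at 1 in 20 would give 5.80. The rhabdomyolysis mouse 1 values of Hspa1a (gap share 0.897, 2128 CPM with 937 next) and Hspa1b (0.849, 1724 with 811 next) were high, and its Dnajb9 value was low (0.851, 312 with 401 next). Hspa8 was low in IRI mouse 2 (0.956, 1292 with 1634 next) and Hspb6 in cisplatin mouse 3 (0.911, 18.4 with 21.0 next). Dnajb12 was low in control 4 (0.582, 69.8 with 84.5 next).

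Effects that differed between injuries by limma's test of the difference were led by the inducible HSP70 genes. Between rhabdomyolysis and cisplatin the log2 differences were 5.16 for Hspa1a, 4.07 for Hspa1b, 2.91 for Hspa5, 2.50 for Hsph1 and 2.01 for Hsp90b1. The IRI effect minus the rhabdomyolysis effect was -6.23 for Hspa1a, -5.26 for Hspa1b, -2.98 for Hspa5, -2.34 for Hspb1 and -2.28 for Dnajb9. The IRI effect minus the cisplatin effect was -1.61 for Hspb2, -1.19 for Hspa1b, -1.08 for Hspa1a, -0.98 for Dnajb3 and 0.95 for Dnajc22. Hspa1a and Hspa1b share sequence, and their differences may not be separate measurements.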

How the results depend on the processing

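A 2-fold minimum left 10 members called in IRI (5 higher and 5 lower), 17 in cisplatin, 16 between rhabdomyolysis and cisplatin, 20 between the IRI and rhabdomyolysis effects and 3 between the IRI and cisplatin effects. The last comparison had 12 calls in the reported fit, 19 under 75th percentile scaling, 19 under quantile normalization and 21 with all 8 controls. Leaving out each library gave 32 to 35 calls in IRI, 37 to 38 in rhabdomyolysis, 36 to 39 in cisplatin, 35 to 37 between rhabdomyolysis and cisplatin, 30 to 34 between the IRI and rhabdomyolysis effects and 9 to 15 between the IRI and cisplatin effects. Quantile normalization changed the sign of 2 cisplatin differences, and the cause was not tested. Hsp90b1, not called at -0.02, passed at 0.47 (adjusted p 0.0102), and Hspa8, called at -0.84, did not pass at 0.017 (adjusted p 0.916). It moved the median of all genes by -0.20 in rhabdomyolysis and -0.28 in cisplatin, and 75th percentile scaling moved it by 0.11 in IRI and 0.14 in rhabdomyolysis. In rhabdomyolysis edgeR moved it by 0.16 and DESeq2 by 0.24. On recovered reads edgeR called 34, 39 and 39 members against the controls (IRI, rhabdomyolysis, cisplatin), and DESeq2 34, 39 and 36. With the replicate number as a block, 32 members were called in IRI and 37 between rhabdomyolysis and cisplatin, beside 31 and 36 in the same 8 libraries with no block. Hspa12a and Psmb3 in IRI did not pass with the block (adjusted p 0.0907 and 0.0753), nor in those 8 libraries with no block (0.0706 and 0.0567). Deviations of same-numbered libraries correlated at -0.207 to 0.325. Of the IRI and rhabdomyolysis libraries, only IRI mouse 1 and rhabdomyolysis mouse 4 correlated best with their own number, and the numbers were read as names only. Of 144 single values, 136 kept call and direction under 75th percentile scaling and 133 under quantile normalization. A pseudocount of 0.1, no minimum mean and no trend kept all 144. Calls against the controls that another scaling, control set or count test ended are given beside the values of those members.

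Depth limits the low members, Hspb2, Dnajb3 and the 3 untested ones. Every gene in the table lay at least 1.53-fold from the controls in 1 injury or more, so genes steady in all 3 are not in it. Controls labelled mock cannot be divided into mock and vehicle animals.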
